A study of Mus musculus with 6 samples.

Results

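A list of 40 genes of the skeletal muscle sarcomere and of muscle calcium handling and energy supply was followed in bone RNA from the mouse jaw joint. The members are given by symbol, with no threshold on a measured value, and 38 of the 40 are among the 23170 genes of the authors' deposited table. The other two, Myh7 and Tnni1, are not analysed here. The samples are subchondral bone, the layer under the joint cartilage, of the mandibular condyle, which is the rounded end of the lower jaw in the temporomandibular joint. The 6 libraries are from wild type mice. Of these, 3 are labelled Sham operation and 3 Partial discectomy, the removal of part of the joint disc, done on one joint, with bone taken from that joint. The age label of every sample reads P6w+PO2w, which gives 6 and 2 weeks and does not spell out its prefixes. Sham descriptions carry the letters Rctrl and partial discectomy descriptions LPD, and what the letters mean cannot be told apart from the operation. The numbers before these letters are 1, 5 and 6 in sham and 2, 4 and 6 in partial discectomy, so that 6 occurs in both groups, and whether it marks the same mouse is not stated. Whether libraries within a group are from different mice is not stated, so their spread may be partly technical.

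A muscle fibre is packed with sarcomeres, the units that shorten. Thick filaments of myosin pull on thin filaments of actin, which are anchored at the Z disc, while titin spans from the Z disc to the M band at the middle of the thick filaments and acts as a spring. Calcium released from the sarcoplasmic reticulum frees the thin filament through troponin and tropomyosin, and creatine kinase, glycogen breakdown and glycolysis supply the ATP. Fast and slow fibres use different genes for most of these proteins. Jaw muscles attach to the mandible next to the joint.

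Upstream sequences of 3 members, chosen after the motif matches were seen, are shown first, because muscle genes are switched on together through a small set of factors: Acta1, the thin filament actin, Ttn, which gives the largest signal of the list, and Myh4, a fast myosin heavy chain. Each is the stretch of 250 bases before the RefSeq start, written 5′ to 3′ on the gene's strand in GRCm38.p6, at chr8:123894776-123895025 (minus strand), chr2:76982548-76982797 (minus strand) and chr11:67237562-67237811 (plus strand). Capitals mark matches on either strand to 5 motifs: the E box of the MyoD family of factors, the MCAT element, the TATA box, the MEF2 site and the CArG box of serum response factor.
Acta1: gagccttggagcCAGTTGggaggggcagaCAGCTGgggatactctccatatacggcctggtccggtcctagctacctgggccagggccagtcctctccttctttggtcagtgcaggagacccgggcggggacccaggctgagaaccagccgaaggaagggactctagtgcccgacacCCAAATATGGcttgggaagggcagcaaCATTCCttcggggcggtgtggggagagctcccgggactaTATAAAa
Ttn: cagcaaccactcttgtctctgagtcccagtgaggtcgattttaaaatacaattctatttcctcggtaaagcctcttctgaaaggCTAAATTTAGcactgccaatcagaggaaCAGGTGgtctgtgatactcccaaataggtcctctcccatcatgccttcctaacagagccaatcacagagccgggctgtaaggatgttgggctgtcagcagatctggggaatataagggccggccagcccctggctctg
Myh4: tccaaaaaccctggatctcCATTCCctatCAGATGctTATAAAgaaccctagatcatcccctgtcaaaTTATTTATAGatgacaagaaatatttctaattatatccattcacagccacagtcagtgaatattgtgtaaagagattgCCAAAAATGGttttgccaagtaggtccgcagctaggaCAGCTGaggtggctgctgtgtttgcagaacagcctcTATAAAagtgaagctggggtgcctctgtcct
In Acta1 the CArG box lay 73 to 64 bases and the MCAT element 46 to 41 bases before the RefSeq start. In Ttn the MEF2 site lay 166 to 157 bases and the E box 138 to 133 bases before it. Myh4 held matches to all 5 motifs, with a TATA box at 31 to 26 bases, and its MEF2 site at 182 to 173 bases overlaps a further TATA box match. Of the 38 members 31 had an upstream sequence in the RefSeq table. A MEF2 site was found in 6 of the 31 (19.4%), against 3.01% of 27025 upstream sequences of the same length, and a CArG box in 5 (16.1%), against 1.40%. An MCAT element, searched as CATTCC, was found in 10 (32.3%) against 12.6%. A TATA box, searched as TATAAA, was found in 7 (22.6%) against 13.0%. An E box, searched as CANNTG, was found in 26 (83.9%) against 66.0%. These are matches of letters and do not show binding.

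Muscle RNA was a small part of the signal. Levels are in RPM, reads per 1000000 reads of a library. Summed over the 38 members, the level was 2995 RPM in sham and 1599 after partial discectomy, or 0.623% and 0.303% of the summed signal of the table. That signal was 481018 RPM in sham and 527430 after partial discectomy, so the percentages are not shares of all reads of a library. With the highest sham library of each member left out, where the group of that library was known, the sham sum was 1626 RPM. This is 0.338% of the sham signal of all genes, from which no library was left out, so it is not the same measure as the 0.623%. Ttn alone made up 56.2% and 43.3% of the members' sum. All 10 osteoblast and osteocyte genes listed were present. In the authors' deposited table the means of Col1a1, bone collagen, were 27783 in sham and 34180 after partial discectomy, and those of Ibsp, a bone matrix protein, were 1240 and 1992. The lowest of the 10 in sham was Sost, an osteocyte gene named after its value was seen, at 30.6 and 53.0. The RNA is bulk, so that fewer muscle fibres in a sample and less RNA per fibre cannot be told apart. The values in the deposited table were found, after they were examined, to be RPM with 1 added, and levels below are given after that 1 is taken off, while deposited ratios and means keep it. Ratios from recovered reads and ratios without a library also have the 1 taken off. The totals, recovered from the table, were 38521779, 39440208 and 46799333 reads for the sham libraries, called here sham A, B and C in this order, and 40192428, 40975541 and 42583693 reads for partial discectomy A, B and C. The letters follow library size and are not the replicate numbers of the labels. A single read is worth 0.0214 to 0.0260 RPM, and 3 reads, the limit that a count of 0 allows, 0.0641 to 0.0779. Every member lay above that limit in both group means, and these limits cover counting error only.

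No member changed at an adjusted p under 0.05 in the authors' deposited table. Over all genes that table called 2.38% (2.28% higher and 0.104% lower), a share at which few of 38 genes would be called. At an unadjusted p under 0.05 the count was also 0 of 38, where all genes had 14.2%, and the 95% limits of each member's ratio included equal means, where 14.7% of all genes had limits on one side. No source used here names the model behind these p-values, and no other tool could be run on the group means. Whether the p-values test the same quantity as the deposited limits is not stated either. Ratios of the partial discectomy mean to the sham mean lay between 0.387 and 1.43, with 32 members below 1 and 6 above. The median log2 ratio was -0.41 over the members and 0.08 over all genes. The limits were wide: the upper limit was a median of 4.63 times the lower limit among members, against 1.86 times among all genes. Set against the median ratio of all genes in place of equal means, the limits of 2 members, Actn3 and Myl3, lay below it and none above. Of all genes 6.65% lay below, 8.11% above and 14.8% on either side.

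**Figure D1:**
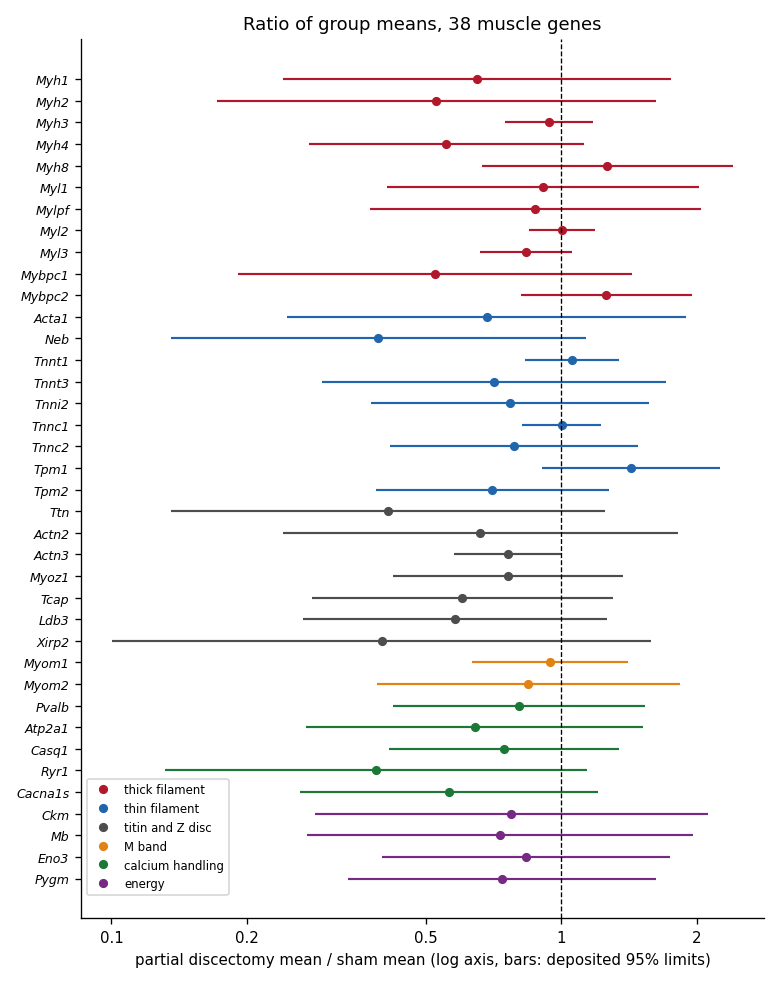
Ratio of the partial discectomy mean to the sham mean for 38 muscle genes in the authors' deposited table, on a log axis, with the deposited 95% limits as bars and colours for the part of the fibre each gene serves. The bars of all 38 genes cross equal means (dashed line), and the lowest ratio is that of Ryr1 at 0.387 and the highest that of Tpm1 at 1.43.

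One sham library stood apart in muscle RNA. The table gives the highest of the 6 values for each gene, and where that value is a whole number of reads of exactly one library (to within 0.001 read) it names the library. This was so for 14 members, and the other 24 could not be placed. Sham A was the highest library for 12 of the 14, sham B for 1 (Actn3) and partial discectomy C for 1 (Myl2). Among the 11500 of all 23170 genes that could be placed in this way, sham A was highest for 21.7% and partial discectomy C for 31.3%. The other muscle genes, from 6 lists described below, gave the same picture: sham A was highest for 42 of 58 that could be placed. Where the group sums alone fix the group of the highest library, the placed library belonged to that group for 99.8% of 2002 genes. Many of these genes had also been used to assign the libraries to groups, so the agreement is largely built in and is no independent check.

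**Figure D2:**
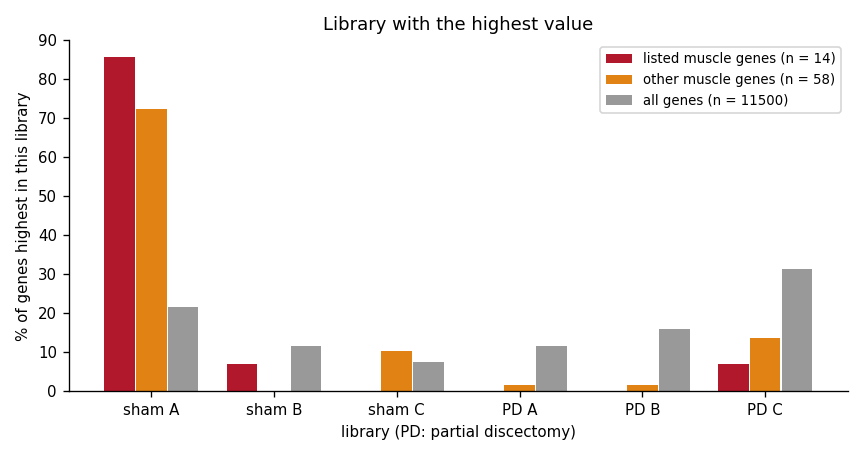
Share of genes (percent, vertical axis) whose highest value came from each of the 6 libraries, for the listed muscle genes (14 placed), other muscle genes (58 placed) and all genes (11500 placed). Sham A holds 12 of the 14 listed muscle genes and 21.7% of all genes.

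For 7 of the 24 members with a mean up to 15 the read count in each of the 6 libraries could be recovered, since only one set of whole numbers gives both group means, the highest value and the geometric mean. Tcap, telethonin, which caps titin at the Z disc, had 16.7, 2.41 and 6.92 RPM in sham A, B and C and 3.63, 5.37 and 5.52 in partial discectomy A, B and C. The 3 partial discectomy libraries lay between the lowest and the highest sham library. The means were 8.69 ± 7.33 (SD, n = 3) and 4.84 ± 1.05 (SD, n = 3), a ratio of 0.557, and without sham A the ratio was 1.04. Myoz1, a Z disc protein that binds calcineurin, had 4.00, 0.431 and 1.77 in sham A, B and C and 1.39, 1.27 and 1.34 in partial discectomy A, B and C. Again sham A was the highest and sham B the lowest of all 6, and the ratio of 0.645 became 1.21 without sham A. Myom2, a myosin-binding protein of the M band, had 3.84, 0.254 and 0.769 in sham A, B and C and 0.299, 0.781 and 2.56 in partial discectomy A, B and C. Each group held a high library for this gene: the ratio of 0.748 became 2.37 without sham A and 0.333 without partial discectomy C.

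Actn3, the alpha-actinin found only in fast fibres, was the exception among the 7. It had 0.883, 1.45 and 0.727 RPM in sham A, B and C and 0.597, 0.683 and 0.329 in partial discectomy A, B and C. The groups did not overlap, and sham A was not the highest. Read counts were searched for listed muscle genes only, so the share of all genes without overlap is not known. The means were 1.02 ± 0.378 and 0.536 ± 0.185 RPM (SD, n = 3 each), a ratio of 0.527. In the authors' deposited table Actn3 had a ratio of 0.761 with an unadjusted p = 0.0561 and an adjusted p = 0.366. With 1 library left out in turn the ratio of the means stayed between 0.455 and 0.667. The remaining 3 recovered members are slow fibre genes at the lower end of the list, given with the fibre types below.

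**Figure D3:**
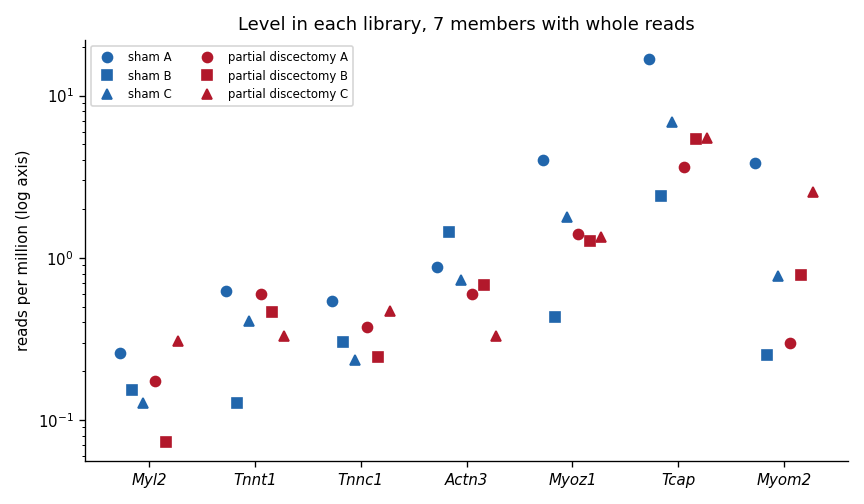
Level in RPM (log axis) in each of 6 libraries for 7 members with recovered read counts, sham libraries in blue and partial discectomy libraries in red. For Tcap and Myoz1 sham A is highest and sham B lowest (16.7 and 2.41 for Tcap), and for Actn3 all 3 sham libraries lie above all 3 partial discectomy libraries.

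For members without whole reads, the group of the highest library could often still be fixed, since the group means, the highest value and the geometric mean allow only one. The group was known for 34 of 38 members, and it was sham for 32. Among the 19200 of all genes for which it was known it was sham for 34.8%. In those 32 members the highest sham library held between 45.4% and 94.6% of the group's total (median 64.2%), where an even spread gives 33.3%. The highest library always holds at least an even share, so a share above 33.3% is no finding by itself. The same share over all genes is not given here. With the 1 taken off, the median ratio of the 32 members was 0.661. It was 1.22 once the highest sham library of each member was left out, with 24 of 32 above 1. Leaving out the highest value always raises such a ratio. The library left out was chosen gene by gene: it was sham A for 12 of the 32 and sham B for Actn3, and was not placed for the others. The 1.22 thus shows how much rests on each gene's highest value. It does not show what the ratio would be with other libraries or without any given library. For 25 of the 34 members the groups must overlap: without its highest library, the group that held it had a mean below that of the other group. The same held for 5529 of the 19200 genes with a known group. Neutrophil and red cell markers moved in the same comparison: all 4 neutrophil and all 4 red cell genes of short marker lists were called higher in the authors' deposited table. Their summed level was 38.8 RPM in sham and 652 after partial discectomy for neutrophils, and 9.83 and 186 for red cells. With these genes taken out of the sum, the members' share of the signal was 0.623% and 0.304%. The markers are a small part of a summed signal of 527430 RPM after partial discectomy, so taking them out could hardly change that share. Whether blood cell RNA lowered the muscle share was not tested. Of 6 Schwann cell genes 1 was called, Mbp, a myelin protein that was higher after partial discectomy. None of 7 tendon genes was called, but 2 had an unadjusted p under 0.05 towards lower, where 3.31% of all genes did. They were Thbs4, thrombospondin-4, with deposited means of 162 and 59.6 (ratio 0.368, adjusted p = 0.139 in the authors' deposited table), and Kera, keratocan, named after its value was seen (ratio 0.345). The 7 tendon genes were mixed, with 3 ratios above 1, 4 below and a median log2 ratio of -0.04. Their summed level was 1753 RPM in sham and 2103 after partial discectomy. Most of that sum was Fmod, fibromodulin, with deposited means of 1310 and 1776. A single partial discectomy library held 61.4% of its group's total for Fmod. The part of tendon in the muscle values was not tested.

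**Figure D4:**
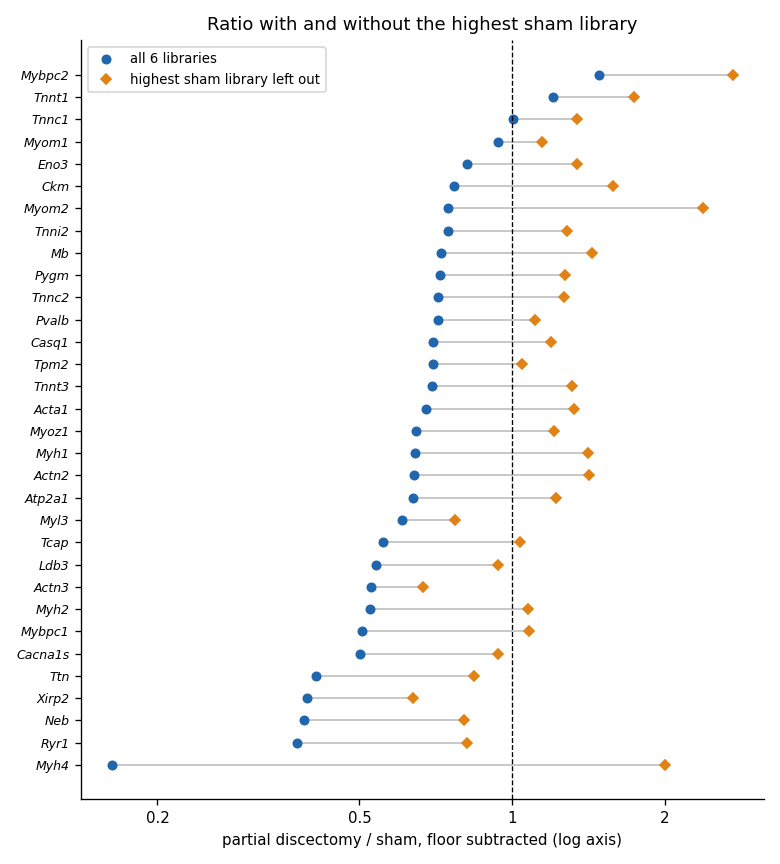
Ratio of partial discectomy to sham with the added 1 subtracted (log axis) for the 32 members whose highest library was a sham library, over all 6 libraries (circles) and with that library left out (diamonds). The ratio passes from below to above 1 for most of them, while Ttn, Neb, Ryr1, Xirp2, Ldb3, Cacna1s, Myl3 and Actn3 stay below 1.

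Thick filament genes had a median log2 ratio of -0.19, with 8 of 11 ratios below 1. The myosin heavy chain Myh2 of fast oxidative fibres had deposited means of 131 in sham and 69.0 after partial discectomy, a ratio of 0.528 (limits 0.171 to 1.62) with adjusted p = 0.883 in the authors' deposited table. Its highest sham library held 67.5% of the sham total, and the ratio without it was 1.07. Myh1, the heavy chain of fast IIX fibres, had means of 71.0 and 46.1 (ratio 0.649, 0.241 to 1.75). Myh4, of the fastest fibres, had only 1.13 RPM in sham and 0.185 after partial discectomy, and a single library held 94.6% of the sham total. The other two sham libraries averaged 0.0925. The developmental chains Myh3 and Myh8, used in embryonic and newborn muscle, had ratios of 0.939 and 1.26. Myosin heavy chain genes lie in a cluster and are alike in sequence, and for none of these was the highest value a whole number of reads of one library, so their values are uncertain. The light chains Myl1 and Mylpf, which brace the myosin neck in fast fibres, had ratios of 0.910 (0.410 to 2.02) and 0.875 (0.376 to 2.04). Of the myosin-binding proteins, Mybpc1, the slow form, had means of 27.6 and 14.5 (ratio 0.524, 0.191 to 1.44), and Mybpc2, the fast form, 2.14 and 2.69 (ratio 1.26, 0.812 to 1.95). Sham A was the highest library for Mybpc2 too, with 84 reads, even though its partial discectomy mean was higher. The M band genes Myom1 and Myom2, which tie thick filaments together, had deposited ratios of 0.943 (0.633 to 1.40) and 0.844 (0.388 to 1.84).

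Thin filament genes had a median log2 ratio of -0.38, with 6 of 9 below 1. Acta1, skeletal actin, had means of 72.4 in sham and 49.4 after partial discectomy, a ratio of 0.682 (limits 0.246 to 1.89) with adjusted p = 0.977 in the authors' deposited table, and 1.33 without its highest sham library. Neb, nebulin, which runs along the thin filament, had means of 274 and 107, a ratio of 0.392 (limits 0.136 to 1.13) with adjusted p = 0.649 in the authors' deposited table. Its highest sham library held 67.7% of the sham total, and the ratio without it was 0.804. The fast troponins Tnnt3, Tnni2 and Tnnc2 had ratios of 0.709, 0.769 and 0.784. Both tropomyosins are also made outside skeletal muscle. Tpm1 was the one member with a mean above 5 RPM that had a ratio above 1, from 219 in sham to 313 after partial discectomy (ratio 1.43, limits 0.906 to 2.25) with adjusted p = 0.478 in the authors' deposited table. Its highest library was a partial discectomy library, and the ratio was 1.22 without it. Tpm2 had means of 59.6 and 41.8 (ratio 0.702, 0.386 to 1.28). Smooth muscle genes, which could share the tropomyosins, did not pass the threshold either: 0 of 8 were called, with 6 ratios below 1 and, for Acta2, smooth muscle actin, a ratio of 0.538 (limits 0.367 to 0.789) with adjusted p = 0.135 in the authors' deposited table. Smooth muscle's part in the tropomyosin values was not tested.

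Titin and the Z disc genes had the lowest class median, a log2 ratio of -0.73, with 7 of 7 below 1. Ttn (chromosome 2, 76703980 to 76982547, mm10) had means of 1685 in sham and 693 after partial discectomy, a ratio of 0.411 (limits 0.135 to 1.25) with adjusted p = 0.674 in the authors' deposited table. For Ttn the highest deposited value, 3404 in one sham library, was 67.3% of the sham total, and the other two averaged 825 RPM, so that the ratio without it was 0.839. Xirp2, an actin-binding protein of Z discs and fibre ends, had means of 126 and 50.1 (ratio 0.399). Actn2, the alpha-actinin that crosslinks actin at the Z disc, had 17.7 and 11.7 (ratio 0.661), with 1345 reads in sham A, and a ratio of 1.42 without it. Ldb3, which binds alpha-actinin, had 9.99 and 5.38 RPM (deposited ratio 0.580), with 712 reads in sham A, and a ratio of 0.936 without it.

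Calcium handling genes had a median log2 ratio of -0.64, with 5 of 5 below 1. Ryr1, the calcium release channel of the sarcoplasmic reticulum, had means of 55.2 in sham and 21.4 after partial discectomy, a ratio of 0.387 (limits 0.131 to 1.14) with adjusted p = 0.651 in the authors' deposited table, and 0.816 without its highest sham library. Cacna1s, the voltage sensor that opens it, had 8.32 and 4.67 (ratio 0.562). Atp2a1, the pump that returns calcium to the store in fast fibres, had 69.5 and 44.6 (ratio 0.641, 0.271 to 1.52), and 1.22 without its highest sham library. Casq1, which holds calcium in the store, and Pvalb, parvalbumin, a calcium buffer of fast fibres, had ratios of 0.745 and 0.804. Energy genes had a median log2 ratio of -0.40, with 4 of 4 below 1 and ratios in a narrow range. Ckm, muscle creatine kinase, had means of 29.2 and 22.6 (ratio 0.774, 0.283 to 2.12), and Mb, the oxygen store myoglobin, 34.5 and 25.2 (ratio 0.731, 0.272 to 1.97). Eno3, muscle enolase, and Pygm, which breaks down glycogen, had ratios of 0.834 and 0.738. Without the highest sham library all 4 energy genes had a ratio above 1, from 1.27 for Pygm to 1.58 for Ckm. The class medians lay between -0.73 and -0.16 on the log2 scale. The median standard error of a single member's log2 ratio, taken from the deposited limits as if they came from a normal distribution, was 0.56. The model behind the limits is not named, so this value depends on that assumption. It is not the error of a difference between classes, because all members share the same 6 libraries. The order of the classes was not tested. With the highest library of each member left out where its group was known, the median was -0.10 for titin and the Z disc and above 0 for the other 5 classes.

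The fast isoform was the higher in 4 of 5 pairs in both groups. Levels are compared here per kilobase of the longest protein-coding transcript. Tnnt3, the fast troponin T, stood at 19.5 RPM per kilobase in sham, 53.5 times its slow partner Tnnt1 at 0.364, and after partial discectomy at 30.9 times. The fast light chain Mylpf stood at 71.0 times the slow Myl2 in sham and 60.0 times after partial discectomy. Myl1 stood at 14.3 and 21.2 times the slow Myl3, and Tnnc2 at 9.01 and 6.43 times the slow Tnnc1. The myosin-binding proteins went the other way, with the slow Mybpc1 at 6.79 per kilobase in sham and the fast Mybpc2 at 0.316. Among the heavy chains Myh2 was at 21.3 and Myh1 at 11.5 per kilobase in sham, and Myh4 at 0.188. Over the 5 pairs in which both genes are in the table, the fast isoform's log2 ratio was below that of the slow one in 3 (Mylpf, Tnnt3 and Tnnc2) and above it in 2, with a median difference of -0.20. No test of that difference could be made from group means.

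Of the slow isoforms, 3 with recovered reads were close to the detection limit. Tnnt1 had 0.623, 0.127 and 0.406 RPM in sham A, B and C and 0.597, 0.464 and 0.329 in partial discectomy A, B and C. Tnnc1, the troponin C of slow and heart muscle, had 0.545, 0.304 and 0.235, and 0.373, 0.244 and 0.470. Myl2 had 0.260, 0.152 and 0.128, and 0.174, 0.0732 and 0.305. The groups overlapped for all 3 genes, with 45 to 105 reads per gene over all 6 libraries, and their log2 ratios, 0.27, 0.00 and 0.03, were smaller than the spread between libraries. Myl3, the slow ventricular light chain, had 0.731 in sham and 0.444 after partial discectomy (ratio 0.834 and adjusted p = 0.498 in the authors' deposited table).

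Other muscle genes, 85 in 6 lists made with the member list, lay on the same side. None of the 85 was called by the adjusted p of the authors' deposited table, where 2.38% of all genes were, and 66 had a ratio below 1. Their median log2 ratio was -0.26, and that of the 15 further energy genes -0.19. The 24 further sarcomere and Z disc genes had the lowest median (-0.50), and the highest by level were Fhl1 (ratio 0.728), Tpm3 (1.28), Cmya5 (0.520) and Flnc (0.536). The genes named next were chosen after their values were seen. Ratios were 0.410 for Nrap and 0.343 for Xirp1. Limits below equal means were deposited for 3 of the 24 (Xirp1, Myom3 and Synpo2l), where 3.59% of all genes had them. None of the 24 had an unadjusted p under 0.05, so deposited limits and p-values did not always go together. Of 14 genes of the membrane complex and the nerve-muscle synapse 4 had an unadjusted p under 0.05 towards lower, where 3.31% of all genes did. Among them were Sgcd, delta-sarcoglycan (ratio 0.530, limits 0.376 to 0.748) with adjusted p = 0.0758 in the authors' deposited table, Musk, the kinase that organizes the synapse (0.497), and the muscle chloride channel Clcn1 (0.672). Sgcd is also made by other cell types. The 4 myogenic genes in the table, Myf6, Mef2c, Cdh15 and Des, had ratios of 0.934, 1.16, 1.23 and 0.467, and Pax7, Myf5, Myod1 and Myog are not analysed here. The read counts of 32 of the 85 could be recovered. Sham A was the highest library for 26 of the 32, sham B was the lowest for 22, and the groups overlapped for all 32. No share over all genes stands beside these counts, since the search covered listed muscle genes only. Csrp3, the muscle LIM protein, had 6.44, 0.228 and 3.12 RPM in sham A, B and C and 1.07, 1.00 and 0.939 after partial discectomy, so that the sham libraries spread over a range that enclosed the partial discectomy libraries. Of the recovered members, 5 of 7 were highest in sham A and 4 of 7 lowest in sham B.

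Among members above 1 RPM, the 4 with the longest transcripts had the lowest ratios. Lengths are those of the longest protein-coding transcript, and the bounds of 2 and 6 kb were chosen after this order was seen. Of the 31 members with a mean of at least 1 RPM, the 8 over 6 kb had a median log2 ratio of -1.14 with the 1 taken off. The 11 between 2 and 6 kb and the 12 under 2 kb both had -0.48. Ttn, Neb, Ryr1 and Xirp2, the longest of the list, had ratios of 0.411, 0.390, 0.376 and 0.394. The other 4 over 6 kb, just past that bound, were mixed: Cacna1s had 0.502, Myh2 0.524 and Myh1 0.644, while Myh8 had 1.38, one of the highest of the list. Spearman's rho between length and log2 ratio was -0.46 over the 31 members, a description only, since they share the same 6 libraries. For the 28 whose highest library could be left out it was -0.53 with all libraries and -0.45 without that library. Among 12749 protein-coding genes rho was -0.26, with medians of 0.30, 0.14 and 0.02 from the shortest to the longest class. Among 62 other muscle genes rho was -0.12, and their medians were -0.53, -0.38 and -0.32 in the same order, so that the longest class was not the lowest there.

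**Figure D5:**
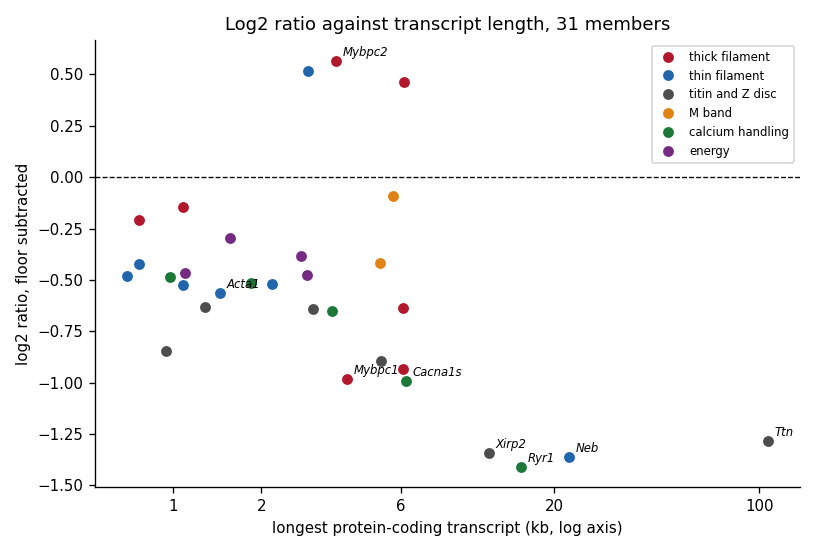
Log2 ratio of partial discectomy to sham with the added 1 subtracted (vertical axis) against the length of the longest protein-coding transcript in kilobases (log axis) for 31 members, coloured by class. The 8 members over 6 kb have a median of -1.14, with Myh8 at 0.46, and both shorter classes have -0.48.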

How the data were processed

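RNA sequencing of condylar subchondral bone was deposited as 1 table by the authors that compares 3 partial discectomy with 3 sham libraries over 23170 genes. Titles gave each sample's group. The submitters' processing notes name STAR 2.6.1d and mm10. The counter, normalization and model were not given in the sources used here. A second file held gene positions and no measurement and was not used. The signal columns deposited by the authors hold group means, the sum, the highest value, and the geometric and arithmetic means over 6 libraries. The authors' deposited ratio, its log2 and the p-value were used as they stand. The deposited fold changes and limits, entered as a score because they are signed, were turned into ratios. A Benjamini-Hochberg adjustment of the deposited p-values gave back the adjusted values.

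Highest values of low genes, less 1, were whole multiples of 6 steps, each 1000000 over a whole number, so the deposited signal was read as reads per 1000000 (RPM) plus 1. This reading, its tolerances, the length classes and the leaving out of single libraries were chosen after the data were seen. Whole reads (within 0.001) were found for 63.5% of highest values under 5 and 36.8% of the others, too few for a count model. Steps were tied to a group only by genes whose group sums leave no choice. Read counts of all 6 libraries were searched for members and other muscle genes with a mean up to 15 (24 and 62 genes), with a tolerance of 1.0e-04 read and 1.0e-05 on the log product, and kept where 1 solution existed. In simulated data the library totals were found, and the group of the highest library was right wherever a single group was possible. Recovery of read counts was tried there only up to a lower mean than 15, and its success rate is not given here. Lengths came from GENCODE M21. Python 3.11.15, numpy 2.4.6, pandas 2.3.3 and scipy 1.17.1 were used. All members in the table are named; other genes are up to 4 a list, the highest by mean level or past the adjusted p, unless said to be chosen after their values were seen. Deposited gene ends, 1 base past the GENCODE ends, were reduced by 1. Members, classes and lists were chosen with earlier results of these data known. The count model planned in case counts per library were present could not be fitted to group means. Some genes of the other muscle lists are counted but not reported here by name.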

Additional observations from a re-analysis of the deposited data

How the results depend on the processing

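No member was called under any of the 4 alternatives that keep equal means as the centre (deposited p-values readjusted over genes with a mean of at least 5 or at least 1 RPM, the unadjusted p, and the 95% limits), and 2 were past the limits when these were set against the median ratio of all genes. The members' median log2 ratio of -0.41 was between -0.58 and -0.49 with the floor subtracted, with either centring, or over members with a mean of at least 5. It became 0.26 with the highest library of each member, not always the same library, left out where its group was known. Class medians stayed below 0 with the floor subtracted and with either centring. With the highest library left out where known, an alternative added after the data were seen, they became 0.10 for thick filament, 0.36 for thin filament, -0.10 for titin and Z disc, 0.72 for M band, 0.15 for calcium handling and 0.47 for energy genes. The sham share became 0.338%, with the signal of all genes still taken over all sham libraries. Leaving out the highest value raises each ratio whose highest library is sham. Of the 7 members with recovered reads, leaving out sham A turned the log2 ratio to 0.27 for Myoz1, 0.05 for Tcap and 1.25 for Myom2, and leaving out partial discectomy C gave -1.59 for Myom2; in no other single case did the ratio move by more than the relative SD of the more variable group. No paired analysis was possible because the table holds group means and the recovered libraries carry neither the replicate numbers of the titles nor the numbers of the descriptions, of which only 6 occurs in both groups. Leaving out each library in turn could not be run for the other 31 members. The fast minus slow median was -0.24 with the floor subtracted, and the -0.09 with the highest library left out rests on 3 of the 5 pairs. Myl2, Tnnt1 and Tnnc1 rest on 45 to 105 reads in all.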
